A study of Homo sapiens with 24 samples.

Results

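The transcripts described are those of 9 genes that mark the luminal cells of the prostate: the kallikreins KLK2, KLK3 and KLK4, the membrane protease gene TMPRSS2, the transcription factor genes HOXB13 and FOXA1, the surface hydrolase gene FOLH1, and the keratin genes KRT8 and KRT18. They were chosen by symbol, and a probe counted as detected where its detection p was below 0.01 and was kept when 3 or more of the 24 arrays detected it. The array annotation held 11 probes for these 9 genes, all 11 were kept, and all 11 were detected on all 24 arrays. They stand beside 10345 genes tested in all. FOLH1 and KRT18 had 2 probes each, and the other 7 genes had 1.

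Luminal cells line the prostatic ducts and secrete the fluid that holds the kallikreins, and in these cells androgen raises the transcription of KLK2, KLK3 and TMPRSS2. FOXA1 opens chromatin at androgen-responsive enhancers and HOXB13 binds many of the same sites, while the KRT8 and KRT18 proteins pair into the filaments of simple epithelium. KLK3 encodes prostate-specific antigen, the serum marker of prostate cancer, and FOLH1 encodes prostate-specific membrane antigen, a carboxypeptidase of the cell surface.

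RNA came from LNCaP, an androgen-sensitive line from a lymph node metastasis of human prostate cancer, grown in medium with fetal bovine serum in every group and plated directly onto the agent. One pair of treatments was ST045849, an inhibitor of O-GlcNAc transferase (OGT, which attaches N-acetylglucosamine to nuclear and cytosolic proteins), and its vehicle. The other was an siRNA against OGT (siOGT) and a scrambled siRNA. Each of the 4 treatments was sampled at 12 and at 24 hours, with 3 arrays in each of the 8 groups, called biological replicates by the submitters. The sources used here give no dose of ST045849, and all groups are 1 cell line. They do not say whether replicates were separate cultures, so the p-values measure the spread between these arrays.

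Median raw intensity ran from 101.5 to 126.5 over the arrays and 29.6% to 34.3% of probes were detected. The OGT transcript, the target of the siRNA, was at a log2 level of 7.19 with siOGT against 8.90 with scrambled siRNA at 12 hours (limma adjusted p = 0.004) and at 7.06 against 8.89 at 24 hours (limma adjusted p = 0.000679). The arrays fell into 2 sets that cross the labelled times. The split is the widest gap between vehicle arrays along principal component 1 (34.2% of variance), carried to the other treatments by time and replicate number. The first set holds replicate 3 at 12 hours and replicates 1 and 3 at 24 hours, and the second holds the other arrays. Exchanging the time labels of replicate 3 at 12 hours and replicate 2 at 24 hours would make each set 1 time. Whether labels were exchanged was not tested, so every value given for 12 or 24 hours rests on the labels as they stand, and a difference between times is also partly one between sets. Of the 7 annotated basal epithelial markers on a list of 10, none (0) passed the detection filter.

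KLK3, KLK2 and KLK4 lie next to each other on chromosome 19, in the order KLK15, KLK3, KLK2, KLK4 among protein-coding genes of the RefSeq annotation. The 250 bases before the annotated start of each are shown here because KLK3 and KLK2 changed in these data and KLK4 did not pass the test. The sequences are from RefSeq, build GRCh38.p14, 5′ to 3′ on the strand of the gene, and KLK4 is on the minus strand. Capitals mark AGAACA, the first 6 letters of the androgen response element as it is usually written, and the 14 letters GAACAGCAAGTGCT. The latter are the longest run that KLK2 shares with KLK3 among the letters at and just after AGAACA, where alone it was sought. The KLK3 and KLK2 windows also share a longer run of identical letters soon after the capitals, which is not marked.
KLK3, chr19:50854665-50854914, plus strand: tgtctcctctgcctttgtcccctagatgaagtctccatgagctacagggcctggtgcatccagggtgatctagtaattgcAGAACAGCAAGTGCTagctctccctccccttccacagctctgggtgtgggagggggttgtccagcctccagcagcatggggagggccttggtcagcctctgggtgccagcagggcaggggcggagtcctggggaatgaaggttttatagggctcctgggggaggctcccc
KLK2, chr19:50873189-50873438, plus strand: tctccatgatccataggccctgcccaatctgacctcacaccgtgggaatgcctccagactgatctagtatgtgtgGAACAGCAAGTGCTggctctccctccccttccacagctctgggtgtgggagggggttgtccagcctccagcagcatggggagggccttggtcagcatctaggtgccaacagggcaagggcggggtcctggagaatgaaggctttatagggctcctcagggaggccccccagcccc
KLK4, chr19:50911396-50911645, minus strand: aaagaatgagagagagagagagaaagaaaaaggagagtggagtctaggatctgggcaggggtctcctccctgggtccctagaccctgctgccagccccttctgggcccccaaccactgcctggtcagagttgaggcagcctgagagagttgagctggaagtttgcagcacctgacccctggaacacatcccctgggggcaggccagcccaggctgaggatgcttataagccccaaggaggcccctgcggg

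In the KLK3 window AGAACA lies at bases -170 to -165 from the start and GAACAGCAAGTGCT at -169 to -156, so that the 2 overlap. In the KLK2 window GAACAGCAAGTGCT lies at -175 to -162, and the letters before it differ, so AGAACA is not there. Neither was found in the KLK4 window on either strand. AGAACA is common, and 12.4% of 35116 promoter windows of the same length hold it on either strand. GAACAGCAAGTGCT was picked from the KLK3 sequence because the KLK2 window also holds it. The 2 of the 35116 windows that hold it are those of KLK3 and KLK2, so this count follows from the choice. The palindrome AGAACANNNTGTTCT was in 1 window (0.00285%) and the forkhead letters TGTTTAC were in 2.98% of windows. Neither was in the windows of KLK2, KLK3, KLK4, FOXA1 or KRT8. TMPRSS2, HOXB13, FOLH1 and KRT18 had no window in the source used and were not searched. The KLK3 and KLK2 windows were identical at 79.2% of 259 aligned positions, against 47.6% for KLK3 with KLK4 and 47.3% for KLK2 with KLK4. These matches describe letters and say nothing of binding.

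With ST045849, KLK3, KLK2 and TMPRSS2 fell at both times, and KLK4, HOXB13, FOXA1, KRT8 and KRT18 did not pass the test at either time. FOLH1 rose at 12 hours by its main probe. At 12 hours 1 of the 9 genes was called higher and 3 lower, at an adjusted p under 0.05, where 5.73% of all 10345 genes were called higher and 5.28% lower. At 24 hours 0 of the 9 were called higher and 3 lower, where 13.6% of all genes were called higher and 10.7% lower. The median change of the 9 genes was -0.19 at 12 hours and -0.24 at 24 hours on the log2 scale, against 0.003 and 0.026 over all genes tested. With median scaling in place of quantile normalization the median of all genes at 24 hours was -0.139, and 362 genes were called higher and 1539 lower, against 1406 and 1110. Under it KLK3 (-1.18), KLK2 (-0.81) and TMPRSS2 (-1.12) were still called lower.

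**Figure D1:**
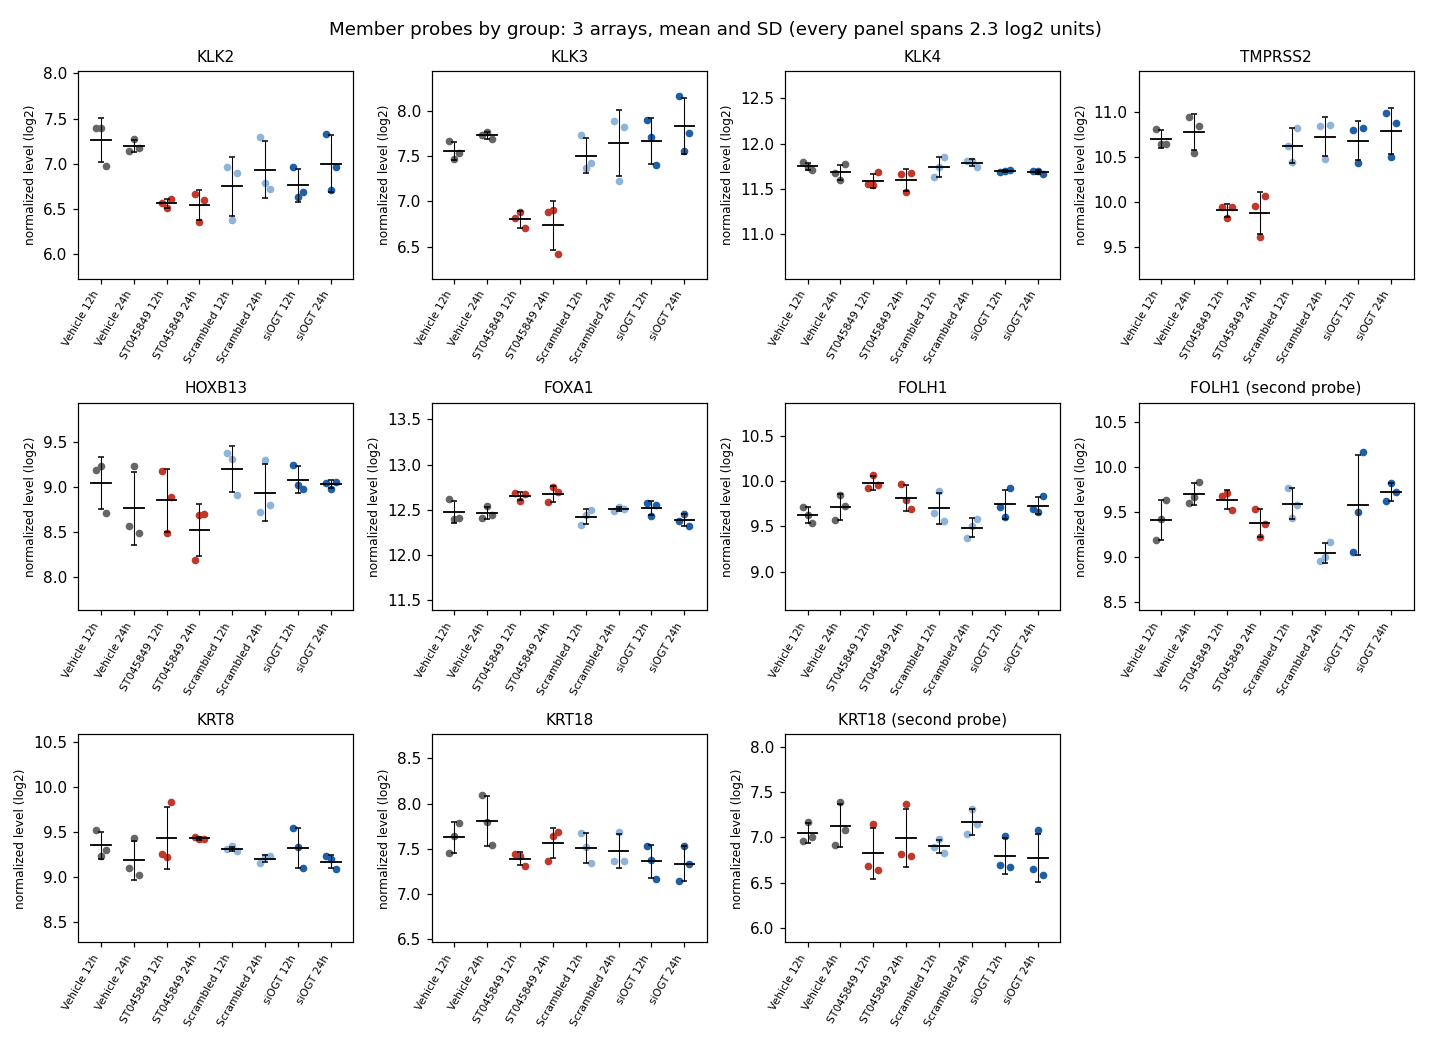
Normalized log2 level of each of the 11 probes in the 8 groups. Points are arrays, the horizontal line is the mean of 3 arrays and the bar is 1 SD, and every panel spans the same number of log2 units. The ST045849 arrays of KLK3 sit between 6.42 and 6.90 and those of TMPRSS2 between 9.62 and 10.07, below every other array of the same panel, and the KLK4 and FOXA1 panels are nearly level.

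KLK3 was measured by 1 probe. Raw intensities over the 24 arrays were modest, 181.4 to 363.5 for KLK3 and 161.7 to 274.7 for KLK2. Array medians over all probes were 101.5 to 126.5. Among kept probes the mean level was at percentile 53.4 for KLK3 and 44.5 for KLK2, against 94.8 for KLK4. At 12 hours the log2 levels of KLK3 were 7.67, 7.47 and 7.54 with vehicle and 6.82, 6.88 and 6.70 with ST045849. At 24 hours they were 7.73, 7.77 and 7.69 with vehicle and 6.88, 6.90 and 6.42 with ST045849. No ST045849 array reached a vehicle array, and at 24 hours replicate 3 was the lowest of the 24 arrays. KLK3 fell by 0.76 (SE 0.18) at 12 hours, to a ratio of 0.591 (95% interval 0.458 to 0.763; limma adjusted p = 0.00898). It fell by 1.0 (SE 0.18) at 24 hours, to a ratio of 0.50 (95% interval 0.388 to 0.646; limma adjusted p = 0.000439). The fall at 24 hours exceeded that at 12 hours by a log2 difference of -0.24 (95% interval -0.76 to 0.28; adjusted p = 0.883), which did not pass the test. In bulk RNA, fewer cells with a transcript and less transcript per cell cannot be told apart.

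In the siRNA arrays KLK3 stood at 7.73, 7.37 and 7.42 with scrambled siRNA and at 7.90, 7.71 and 7.40 with siOGT at 12 hours. At 24 hours it stood at 7.89, 7.23 and 7.82 with scrambled siRNA and at 8.17, 7.56 and 7.76 with siOGT. These 12 arrays overlap with each other and with vehicle, and all of them lie above the ST045849 arrays. By group mean the order of KLK3 levels was ST045849 24 hours (6.73 ± 0.27, SD, n = 3), ST045849 12 hours (6.80 ± 0.09), scrambled 12 hours (7.51 ± 0.20), vehicle 12 hours (7.56 ± 0.10), scrambled 24 hours (7.65 ± 0.36), siOGT 12 hours (7.67 ± 0.25), vehicle 24 hours (7.73 ± 0.04) and siOGT 24 hours (7.83 ± 0.31). Among neighbours in this order only ST045849 12 hours and scrambled 12 hours had arrays that did not overlap.

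KLK2 encodes a trypsin-like kallikrein that can cleave the precursor of prostate-specific antigen. Its log2 levels at 12 hours were 7.40, 7.40 and 6.98 with vehicle and 6.57, 6.51 and 6.61 with ST045849. At 24 hours they were 7.14, 7.27 and 7.18 with vehicle and 6.67, 6.36 and 6.60 with ST045849. The treated and vehicle arrays did not overlap at either time. KLK2 fell by 0.70 (SE 0.18) at 12 hours, to a ratio of 0.616 (limma adjusted p = 0.015), and by 0.65 (SE 0.18) at 24 hours, to a ratio of 0.637 (limma adjusted p = 0.0107). The call at 12 hours was lost without vehicle replicate 1 (-0.63, adjusted p = 0.0545) and without vehicle replicate 2 (-0.63, adjusted p = 0.0579).

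The scrambled siRNA arrays of KLK2 reached down into the range seen with ST045849. At 12 hours they were 6.97, 6.38 and 6.90, all below the 3 vehicle arrays, a difference of -0.51 (SE 0.18) that did not pass the test (limma adjusted p = 1). At 24 hours they were 7.30, 6.79 and 6.72. The siOGT arrays of KLK2 were 6.97, 6.63 and 6.69 at 12 hours and 7.33, 6.71 and 6.97 at 24 hours, and overlapped with scrambled siRNA at both times. KLK2 thus had lower arrays with ST045849 than with vehicle, while over all 18 other arrays (6.38 to 7.40) its values overlapped with ST045849 (6.36 to 6.67).

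The sizes of the KLK2 and KLK3 changes depend on the background correction. Without background correction the change of KLK2 was -0.40 at 12 hours and -0.36 at 24 hours, and that of KLK3 was -0.46 and -0.61, with all 4 changes still called. The authors' processed values gave the same 4 numbers. KLK2 and KLK3 are close relatives and probe sequences were not used here, so whether either probe also reads the other RNA was not tested. The KLK3 probe is annotated to 1 of 3 curated KLK3 mRNAs, and which transcripts it reads was not tested.

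KLK4 encodes a kallikrein that is also active in tooth enamel. Its log2 levels lay between 11.46 and 11.85 on all 24 arrays. At 12 hours the arrays were 11.79, 11.74 and 11.71 with vehicle and 11.55, 11.54 and 11.68 with ST045849, which do not overlap, and at 24 hours they were 11.67, 11.60 and 11.77 against 11.66, 11.46 and 11.67, which do. The difference was -0.15 (95% interval -0.32 to 0.01; limma adjusted p = 0.235) at 12 hours and -0.08 (95% interval -0.25 to 0.08; limma adjusted p = 0.481) at 24 hours. The change of KLK3 exceeded that of KLK4 by a log2 difference of -0.60 at 12 hours and -0.91 at 24 hours, and that of KLK2 exceeded it by -0.54 and -0.57. KLK3 and KLK2 differed in their changes by -0.06 and -0.34. These gene pairs were picked after their values were seen and are given without a test.

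TMPRSS2 encodes a serine protease of the cell membrane whose promoter is often fused to ERG in prostate cancer. At 12 hours its log2 levels were 10.81, 10.64 and 10.64 with vehicle and 9.95, 9.83 and 9.95 with ST045849. At 24 hours they were 10.94, 10.55 and 10.84 with vehicle and 9.96, 9.62 and 10.07 with ST045849. The 6 treated arrays (9.62 to 10.07) lay below all 18 others (10.43 to 10.99). TMPRSS2 fell by 0.79 (SE 0.15) at 12 hours, to a ratio of 0.579 (95% interval 0.464 to 0.723; limma adjusted p = 0.00231), and by 0.90 (SE 0.15) at 24 hours, to a ratio of 0.536 (95% interval 0.430 to 0.669; limma adjusted p = 0.000322). Leaving out any 1 of the 6 arrays of a comparison gave changes of -0.73 to -0.82 at 12 hours and -0.77 to -1.01 at 24 hours, all called.

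**Figure D2:**
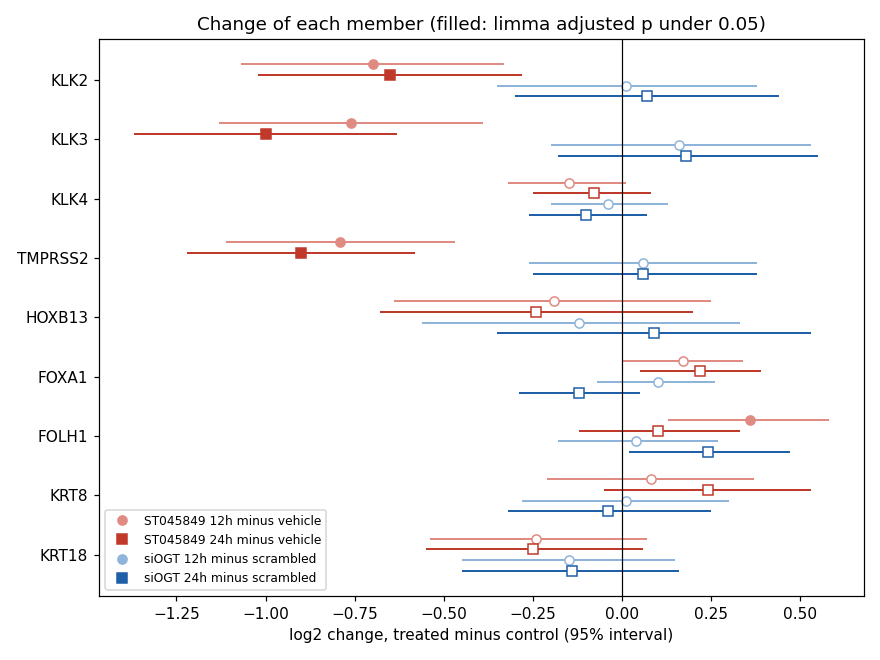
Log2 change of each gene by its main probe, treated minus control, with the 95% interval from the limma fit. Red marks are ST045849 against vehicle, blue marks are siOGT against scrambled siRNA, circles are 12 hours and squares 24 hours, and filled marks have an adjusted p under 0.05. KLK2, KLK3 and TMPRSS2 have filled marks left of 0 at both times with ST045849, and no siOGT mark is filled.

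FOXA1 encodes a forkhead factor of the luminal lineage. Its arrays at 24 hours were 12.41, 12.54 and 12.44 with vehicle and 12.58, 12.75 and 12.70 with ST045849, which do not overlap, while at 12 hours 12.62, 12.40 and 12.41 overlapped with 12.68, 12.60 and 12.67. The difference was 0.17 (95% interval 0.00 to 0.34; limma adjusted p = 0.188) at 12 hours and 0.22 (95% interval 0.05 to 0.39; limma adjusted p = 0.0575) at 24 hours, neither of which passed. At 24 hours it passed without background correction (0.21, adjusted p = 0.0274) and without ST045849 replicate 1 (adjusted p = 0.0486) or vehicle replicate 2 (adjusted p = 0.0477). With median scaling in place of quantile normalization it was 0.07 (adjusted p = 0.748). The change of TMPRSS2 was below that of FOXA1 by -0.96 at 12 hours and -1.11 at 24 hours, given without a test.

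HOXB13 encodes a homeobox factor of the prostate. Its arrays at 12 hours were 9.19, 9.23 and 8.71 with vehicle and 9.18, 8.49 and 8.89 with ST045849. At 24 hours they were 8.57, 9.23 and 8.49 with vehicle and 8.19, 8.69 and 8.70 with ST045849. The groups overlapped at both times, with differences of -0.19 (95% interval -0.64 to 0.25; limma adjusted p = 0.614) and -0.24 (95% interval -0.68 to 0.20; limma adjusted p = 0.439). With scrambled siRNA the arrays were 9.38, 9.31 and 8.91 at 12 hours and 8.72, 9.30 and 8.80 at 24 hours, and all 6 siOGT arrays lay between 8.98 and 9.25.

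The vehicle and scrambled siRNA arrays of HOXB13 separated by array set. Its vehicle arrays averaged 8.59 in the first set (8.49 to 8.71) and 9.22 in the second (9.19 to 9.23). Its scrambled siRNA arrays averaged 8.81 in the first set and 9.33 in the second, again with no overlap. In siOGT (9.03 and 9.08) and ST045849 (8.59 and 8.78) the 2 sets overlapped. The sets also did not overlap for TMPRSS2 in siOGT and scrambled siRNA (first minus second set 0.32 in both), for KRT18 in the same treatments (-0.27 in both), for KLK2 in vehicle (-0.26) and ST045849 (0.15), and for KLK4 in ST045849 (0.15). The sets were defined on these same arrays, and the share of all genes that separate by set was not counted. Separation by set is thus not shown to be particular to any of these genes. For the genes that fell, the difference between ST045849 and vehicle was there within both sets: KLK3 averaged 6.67 against 7.65 in the first set and 6.87 against 7.63 in the second, with no overlap in either. TMPRSS2 averaged 9.99 against 10.81 and 9.80 against 10.67, and KLK2 averaged 6.63 against 7.10 and 6.48 against 7.36, also with no overlap. With the time of each array taken from its set, the change of KLK2 was -0.88 at 12 hours and -0.47 at 24 hours, against -0.70 and -0.65 by the labels. That of HOXB13 was then -0.43 (adjusted p = 0.0787) and 0.00 (adjusted p = 0.991), and without ST045849 replicate 2 at 12 hours or vehicle replicate 2 at 24 hours it was -0.01.

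**Figure D3:**
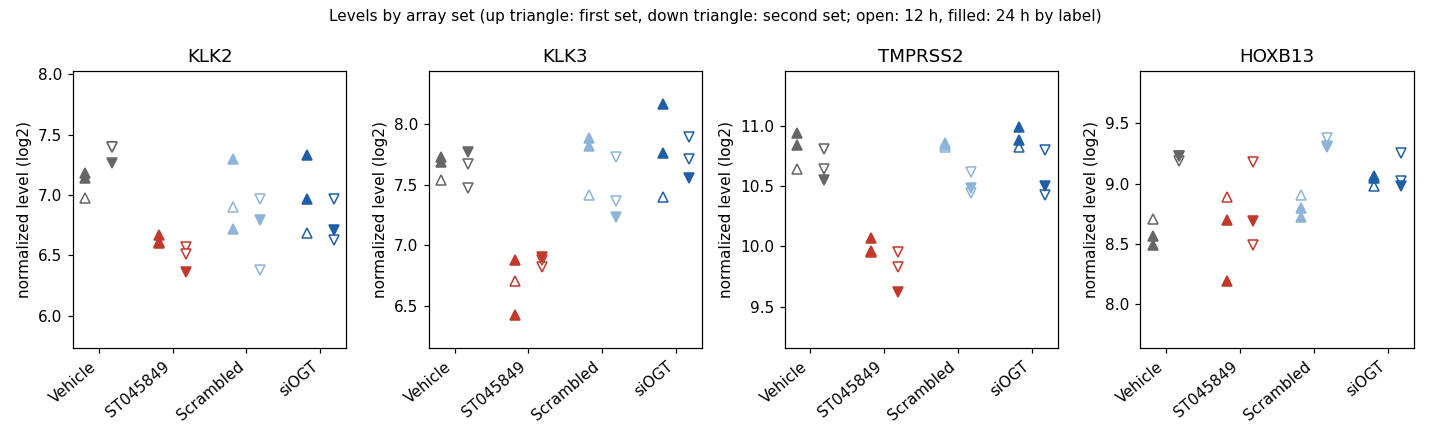
Normalized log2 levels of KLK2, KLK3, TMPRSS2 and HOXB13 by treatment and array set. Upward triangles are the first set and downward triangles the second, and open marks are labelled 12 hours and filled marks 24 hours. HOXB13 vehicle arrays are split between 8.49 to 8.71 and 9.19 to 9.23 by set, while the ST045849 arrays of KLK3 and TMPRSS2 lie below the vehicle arrays in both sets.

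FOLH1 was read by 2 probes, which gave different values. By the main probe the 12 hour arrays were 9.71, 9.63 and 9.54 with vehicle and 9.92, 10.07 and 9.96 with ST045849, and FOLH1 rose by 0.36 (SE 0.11), a ratio of 1.28 (limma adjusted p = 0.0371). That call was lost in several settings, among them median scaling (0.28, adjusted p = 0.347) and labelling time by set (0.20, adjusted p = 0.278), and without vehicle replicate 2 (adjusted p = 0.0802) or 3 (0.149) or ST045849 replicate 2 (0.126) or 3 (0.0937). At 24 hours the arrays of that probe overlapped, at 9.57, 9.85 and 9.73 against 9.97, 9.79 and 9.69, with a difference of 0.10 (limma adjusted p = 0.526) that was -0.11 with median scaling. In the fit over all kept probes, the other FOLH1 probe differed by 0.22 (limma adjusted p = 0.534) at 12 hours. At 24 hours it differed by -0.32 (limma adjusted p = 0.241). The main probe was not called in that fit either (limma adjusted p = 0.0524 at 12 hours and 0.558 at 24 hours). FOLH1 has close copies in the genome, and which RNAs the probes read was not tested.

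The keratins did not pass the test. KRT8 differed by 0.08 (95% interval -0.21 to 0.37) at 12 hours and by 0.24 (95% interval -0.05 to 0.53) at 24 hours, with limma adjusted p = 0.766 and 0.217. Its ST045849 arrays at 12 hours were 9.26, 9.22 and 9.83 against 9.52, 9.24 and 9.30 with vehicle, with 1 array above the rest, and at 24 hours they were 9.45, 9.42 and 9.42 against 9.10, 9.43 and 9.03. KRT18, the partner of KRT8, differed by -0.24 (95% interval -0.54 to 0.07) and -0.25 (95% interval -0.55 to 0.06), with limma adjusted p = 0.325 and 0.236. Its arrays were 7.45, 7.64 and 7.79 against 7.44, 7.42 and 7.31 at 12 hours, which do not overlap, and 8.09, 7.80 and 7.54 against 7.37, 7.64 and 7.68 at 24 hours, which do. The other KRT18 probe differed by -0.22 and -0.14 in the fit over all kept probes (limma adjusted p = 0.488 and 0.630). Both keratins have many processed pseudogenes, whose RNA the probes may also read.

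By arrays alone, at 12 hours 1 of the 9 genes (FOLH1) had all 3 ST045849 arrays above the 3 vehicle arrays and 5 had them below (KLK2, KLK3, KLK4, TMPRSS2 and KRT18). Of all genes, 28.8% had no overlap in one direction or the other. At 24 hours 1 gene (FOXA1) lay above and 3 below (KLK2, KLK3 and TMPRSS2), where 40.2% of all genes had no overlap.

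With siOGT, in cells whose OGT transcript was at a ratio of 0.307 at 12 hours and 0.281 at 24 hours, none of the 9 genes was called, nor was either second probe. By the main probe of each gene, the count by limma was 0 of 9 in each direction at 12 hours, where 0% of all genes were called higher and 0.00967% lower, and 0 of 9 in each direction at 24 hours, where 0.0290% were called higher and 0.0967% lower. At an unadjusted p under 0.05 there were 0 at 12 hours and 1 at 24 hours, FOLH1. Of all 10345 genes, 444 at 12 hours and 1323 at 24 hours had such a p. The largest difference of the main probes in either direction was 0.16 and 0.24 on the log2 scale. The second probes had larger differences at 24 hours, 0.68 for FOLH1 and -0.39 for KRT18 (limma adjusted p = 0.167 and 0.393), both with an unadjusted p under 0.05. Averaged over both times, 0 of the 9 main probes were called and 0 had an unadjusted p under 0.05, while the second FOLH1 probe differed by 0.33 (limma adjusted p = 0.323) with an unadjusted p under 0.05. Of all genes in that average, 0.0483% were called higher and 0.145% lower, and 1369 of 10345 had an unadjusted p under 0.05.

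The intervals give the size of change that siOGT leaves room for, in a fit without pairing or array sets. KLK3 differed by 0.16 (95% interval -0.20 to 0.53) at 12 hours and by 0.18 (95% interval -0.18 to 0.55) at 24 hours. TMPRSS2 differed by 0.06 at both times, with intervals of -0.26 to 0.38 and -0.25 to 0.38, and its arrays were 10.80, 10.43 and 10.82 against 10.62, 10.44 and 10.82 at 12 hours. At 24 hours they were 10.99, 10.50 and 10.88 against 10.84, 10.48 and 10.86. KLK2 differed by 0.01 (95% interval -0.35 to 0.38) and 0.07 (95% interval -0.30 to 0.44). In all 3 genes the lower end of the siOGT interval lay above the estimated change with ST045849 at the same time. For KLK2 this rests on the scrambled control: against vehicle, the siOGT difference of KLK2 was -0.50 at 12 hours and -0.19 at 24 hours.

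At 24 hours both FOLH1 probes had siOGT arrays above the scrambled ones. Its main probe read 9.37, 9.51 and 9.58 with scrambled siRNA and 9.69, 9.66 and 9.84 with siOGT, a difference of 0.24 (limma adjusted p = 0.351). The other probe read 8.96, 9.0 and 9.17 against 9.62, 9.82 and 9.72, a difference of 0.68 (limma adjusted p = 0.167). Those scrambled siRNA arrays also lay below the vehicle arrays of that probe (9.60, 9.66 and 9.83), by -0.66 (limma adjusted p = 0.207). Neither passed the test. At 24 hours KLK4 (11.66 to 11.70 against 11.74 to 11.81) and FOXA1 (12.32 to 12.45 against 12.48 to 12.53) had siOGT arrays below the scrambled ones. The differences were -0.10 and -0.12 (limma adjusted p = 0.649 and 0.586). With FOLH1, 3 of the 9 genes had no overlap at 24 hours, where 16.7% of all genes had none. At 12 hours 0 of the 9 did, where 8.75% of all genes did.

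The test of the difference between the ST045849 effect and the siOGT effect called TMPRSS2 at both times and KLK3 at 24 hours. At 12 hours it called 0 of the 9 genes higher and 1 lower, where 1.26% of all genes were called higher and 0.744% lower. TMPRSS2 differed by -0.85 (SE 0.22, limma adjusted p = 0.0445), KLK3 by -0.92 (SE 0.25, limma adjusted p = 0.0598) and KLK2 by -0.71 (SE 0.25, limma adjusted p = 0.155). The calls at 12 hours sit at the threshold: TMPRSS2 was lost in 10 of 12 refits that left out 1 array (adjusted p up to 0.126), and KLK3 was called in 8 of 12 other settings. At 24 hours it called 0 of 9 higher and 2 lower, where 9.65% were called higher and 6.42% lower. KLK3 differed by -1.18 (SE 0.25, limma adjusted p = 0.00393), TMPRSS2 by -0.96 (SE 0.22, limma adjusted p = 0.00587) and KLK2 by -0.72 (SE 0.25, limma adjusted p = 0.0547). KLK2 was called in 7 of 12 other settings (adjusted p down to 0.00588) and without scrambled replicate 1 (0.0211) or siOGT replicate 2 (0.0254). The KLK3 and TMPRSS2 calls at 24 hours held in every refit without 1 array. The other FOLH1 probe differed by -1.0 at 24 hours in the fit over all probes (limma adjusted p = 0.0178), while the main probe differed by -0.14 (limma adjusted p = 0.565).

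Neither the time nor the controls gave a call among the 9 genes. The ST045849 effect at 24 hours minus that at 12 hours was called by limma for 0 of the 9 genes and for 0% of all genes in each direction, with 0 of the 9 at an unadjusted p under 0.05, and the same counts held for siOGT by main probes. Of all 10345 genes, 669 had an unadjusted p under 0.05 for this difference with ST045849 and 375 with siOGT. The second FOLH1 probe had a siOGT effect that differed between the times by 0.70 (limma adjusted p = 0.999), with an unadjusted p under 0.05. Scrambled siRNA against vehicle called 0 of the 9 genes at 12 hours, where 0% of all genes were called, and 0 at 24 hours, where 0.0677% were called higher and 0.0193% lower. The unadjusted p was under 0.05 for 1 gene at 12 hours (KLK2) and for 2 at 24 hours (FOLH1 and KRT18). Over all 10345 genes it was under 0.05 for 423 at 12 hours and for 1332 at 24 hours.

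Lists of related genes are counted here beside the shares of all genes called, which were 13.6% higher and 10.7% lower at 24 hours and 5.73% and 5.28% at 12 hours. With median scaling, a setting added for the lists after the data were seen, the count of all genes at 24 hours was 362 higher and 1539 lower. Of 12 prostate secretory and surface genes tested, STEAP2, a metalloreductase, rose with ST045849 by 0.40 at 24 hours (limma adjusted p = 0.0039), 0 fell, and the median change was -0.04. With median scaling 0 were called higher and 1 lower (median -0.24). At 12 hours 2 were called higher and 1 lower. ACP3, prostatic acid phosphatase, rose by 0.66 (limma adjusted p = 0.0237) and STEAP2 by 0.34 (limma adjusted p = 0.0241), and MSMB, called lower, was not well above background on any array of either group. Of the 12 other kallikreins only KLK15 passed the filter, and it was not called.

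Of 13 luminal transcription factor and cofactor genes tested, 3 rose and 3 fell at 24 hours, with a median of -0.23. With median scaling 0 were called higher and 5 lower (median -0.31), so none of the 3 rises was called. EHF, an epithelial ETS factor, fell by 0.50 (limma adjusted p = 0.00246), SPDEF, a prostate ETS factor, by 0.43 (limma adjusted p = 0.0409) and TRIM24 by 0.47 (limma adjusted p = 0.00396). ELF3, another epithelial ETS factor, rose by 0.62 (limma adjusted p = 0.0051), the acetyltransferase gene CREBBP by 0.40 (limma adjusted p = 0.00833) and the coactivator gene NCOA1 by 0.37 (limma adjusted p = 0.0266). At 12 hours EHF (-0.44) and SPDEF (-0.46) were called lower and 0 higher. With median scaling 0 genes of this list and 0 of the secretory and surface list were called at 12 hours. ACP3, MSMB at 12 hours, SPDEF and NCOA1 were named after their values were seen.

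Of 17 other androgen-induced genes tested, 7 fell and 1 rose at 24 hours, with a median of -0.38, and 2 fell and 1 rose at 12 hours, with a median of -0.15. With median scaling 9 were called lower and 1 higher at 24 hours, with a median of -0.59, where the median of all genes was -0.139. SGK1, a steroid-induced kinase, fell by 0.72 (limma adjusted p = 0.000989), NCAPD3, a condensin subunit, by 0.65 (limma adjusted p = 0.0125) and CENPN, a centromere protein, by 0.61 (limma adjusted p = 0.00123), and the other 4 by 0.54 to 0.64. TSC22D3, which glucocorticoids also induce, rose by 1.79 (limma adjusted p = 3.31e-09). The list is named for androgen, and its members answer to other signals as well.

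Of 14 other keratin and junction genes tested, 2 rose and 2 fell at 24 hours, with a median of 0.06, counts near the shares of all genes called. With median scaling 1 was called higher and 2 lower, with a median of -0.11. ESRP1, an epithelial splicing factor, rose by 0.93 (limma adjusted p = 0.000518) and CLDN3, a tight junction protein, by 0.49 (limma adjusted p = 0.00469). The desmosome gene PKP3 fell by 0.43 (limma adjusted p = 0.0442) and the adhesion gene EPCAM by 0.26 (limma adjusted p = 0.0467). At 12 hours ESRP1 was the 1 gene called, at 0.83. Of 8 other epithelial proteases and protease inhibitors, 2 rose at 24 hours and 0 fell, with a median of 0.29 (with median scaling, 1 and 0, median 0.17). They were PRSS8, a membrane serine protease, by 0.65 (limma adjusted p = 0.00229), and SERPINA3, a serine protease inhibitor, at least 3.38-fold, since its probe was not detected with vehicle (limma adjusted p = 1.11e-05). At 12 hours SERPINA3 was the 1 called. With siOGT 0 genes of these lists were called by limma at either time, where 1 of all genes was called at 12 hours and 13 at 24 hours. Some named genes still had siOGT arrays apart from the scrambled ones at 24 hours, where 16.7% of all genes did. STEAP2 (0.32), ESRP1 (0.30), SGK1 (-0.52) and the neuroendocrine marker DDC (0.20) differed in the direction seen with ST045849 at 24 hours. ELF3 (-0.48), TRIM24 (0.26), ABCC4 (0.24), MSMB (0.65) and the neuroendocrine marker ENO2 (-0.28) differed in the opposite direction. The MSMB probe was not detected with scrambled siRNA at 24 hours, so the size of its difference is uncertain.

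**Figure D4:**
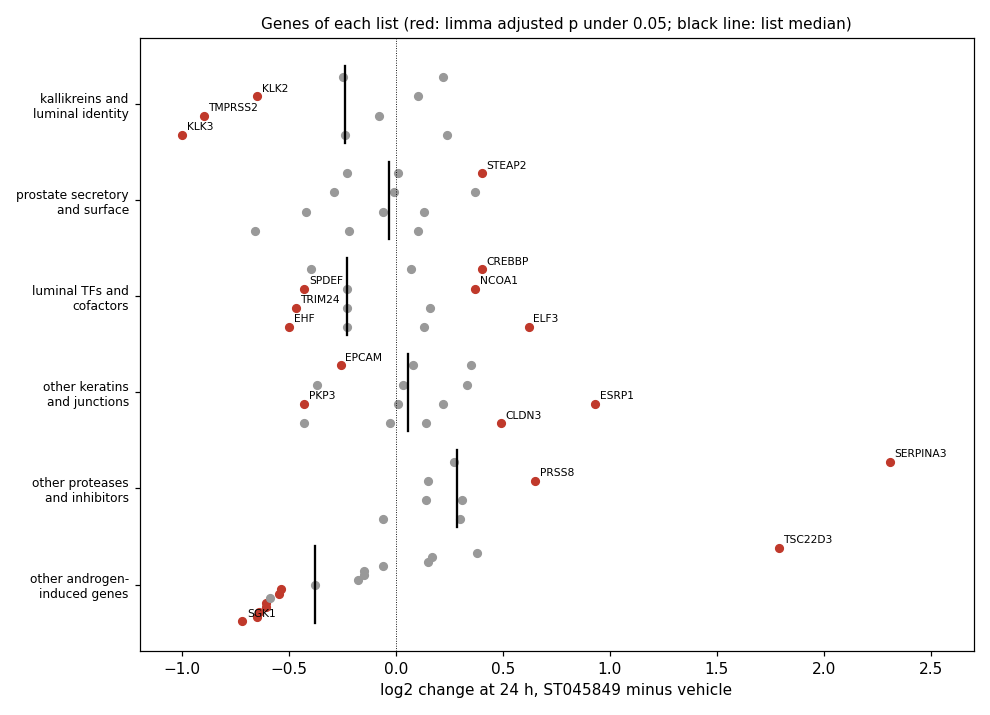
Log2 change at 24 hours, ST045849 minus vehicle, of the genes tested in each list. Each point is a gene, red points have a limma adjusted p under 0.05, and the black line is the median of the list, -0.38 in the other androgen-induced genes and 0.29 in the other proteases and inhibitors. Called genes are labelled except in the lowest row, where only TSC22D3 and SGK1 are, and SERPINA3 is drawn at its fitted value although its vehicle level is only a bound.

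Markers of other cell types were sparse. Of the stromal markers 3 of 10 annotated were tested, of the neuroendocrine markers 2 of 9 and of the immune markers 2 of 9, with 0 called by limma in any treatment comparison, although without background correction 1 of the 2 neuroendocrine markers was called higher with ST045849 at both times. The summed linear level of the 2 neuroendocrine markers (DDC and ENO2) ran from 2912 to 3407 with vehicle and from 3486 to 3876 with ST045849 at 24 hours. The 3 stromal markers (VIM, ACTA2 and TAGLN) summed to 640.1 to 961.7 and 511.7 to 841.2, and the 2 immune markers (CD68 and FCGR3A) to 235.7 to 245.8 and 193.7 to 248.3. At 12 hours the neuroendocrine sum ran from 3275 to 3635 with vehicle and from 3738 to 4331 with ST045849. With siOGT it also lay above scrambled siRNA at 24 hours (3595 to 3689 against 2836 to 3531) and overlapped with it at 12 hours (3836 to 3993 against 3673 to 3969). That sum is almost wholly DDC, at log2 11.58 with vehicle at 24 hours against 6.25 for ENO2. With ST045849 DDC differed by 0.26 at 12 hours and 0.24 at 24 hours (limma adjusted p = 0.0772 and 0.0652), which did not pass. ENO2 differed by 0.01 and 0.32 (limma adjusted p = 0.969 and 0.164). The part of these markers in the results was not tested.

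Over the 24 arrays the genes whose log2 levels were most like those of KLK3 were LIN54 (Pearson r = 0.904, Spearman rho = 0.831), MCM10 (0.900 and 0.771), RPA2 (0.898 and 0.808), PNP (0.894 and 0.704) and DHX15 (0.889 and 0.794). All 5 were also called lower with ST045849 at both times, so the arrays share that separation and the correlations are given only as a description. MCM10, a DNA replication factor, was lower by -1.17 at 12 hours and -1.61 at 24 hours. Among the 10344 other genes TMPRSS2 ranked 24 by r (0.864) and KLK2 ranked 730 (0.673). FOXA1 had r = -0.729, FOLH1 -0.504, KRT8 -0.385, KRT18 -0.034, HOXB13 0.318 and KLK4 0.400.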

How the data were processed

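Biotin-labelled RNA of LNCaP cells was read on Illumina arrays, per the labels' protocols. The deposited raw table lists, per the file headers, a linear probe intensity for each of 24 arrays. Beside it stands, per the file headers, the detection p-value of each probe. A second deposited table holds the authors' processed intensity values, with column medians of 116.356 to 116.393 and the rank order of the raw columns (Spearman correlation 1). Their scale is linear by these values, and no source used here gives the method. The submitters' processing notes name GenomeStudio 2011.1.

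Raw intensities were corrected with normexp from the detection p-values, offset 16, and quantile normalized to log2 by the neqc function (limma 3.58.1; R 4.3.3; data.table version 1.17.8). The offset draws changes of dim probes toward 0. Probes detected (p under 0.01) on at least 3 arrays were kept, 17633 of 47323, and the probe of highest mean stood for each of 10345 genes. Gene names came from the platform annotation. A limma fit of 8 group means gave every contrast, with eBayes and Benjamini-Hochberg adjustment within a contrast, and calls need an adjusted p under 0.05. Second probes were fitted and adjusted among all 17633 kept probes. Same-group arrays had correlations of 0.987 to 0.993, and 0 array pairs held identical values. The number of arrays limits the precision. A fold against a group with no detected array is a bound: the bright group's mean against the dim group's values, each raised to the lowest detected value on its array where it was below that. The method was tested on simulated data. They had independent noise for each gene and array and no array sets, so the test does not cover such sets. Named genes were the 9 genes with every kept probe, OGT, the markers detected on all arrays, the 4 members of smallest p at 24 hours with ST045849 in each list and the 5 genes most correlated with KLK3. The members, lists and alternatives were chosen with earlier results of these data known. Alternatives were background correction, scaling, the authors' values, detection filters, all probes, a replicate block, array sets, array weights, compared groups alone, another control, a 1.5-fold threshold and leaving out each array. Promoter windows matched 5 of the 9 genes by symbol.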

Additional observations from a re-analysis of the deposited data

How the results depend on the processing

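The falls of KLK2, KLK3 and TMPRSS2 with ST045849 were called at both times in all 12 alternative settings that kept every array. No member was called with siOGT in any setting. The settings overlap, so counts of settings are not counts of separate checks. With ST045849 at 12 hours the authors' values called 684 genes higher and 634 lower, and no background correction 685 and 635. The count of genes called with ST045849 at 12 hours, 1139, was 472 with median scaling, 1765 with the sets and a set effect per treatment in the model, 452 with the compared groups alone and 431 with a fold of 1.5 also asked. At 24 hours it was 971 with that fold, against 2516, and 6 members were called, against 3, with times read from the sets, where FOXA1 (0.23), KRT8 (0.42) and KRT18 (-0.35) were added, and 1875 of all genes were higher and 1502 lower. For siOGT at 12 hours, with 1 gene called, the count was 6 with the set effects, 0 with the compared groups alone and 2 with all kept probes. For siOGT at 24 hours, with 13 called, it was 2 with median scaling, 8 with the set effects, 124 with times read from the sets, 0 with the compared groups alone and 6 with the fold. With median scaling the median of all genes was 0.105 for siOGT at 24 hours. The causes were not tested.

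For the difference between the ST045849 and siOGT effects at 12 hours, with 1 member called, the count was 2 with no background correction, the authors' values, detection on all arrays, array weights, the set effects, or the compared groups alone. It was 3 with times read from the sets, and 0 with median scaling, no detection filter or all probes. At 24 hours, with 2 called, it was 4 with no background correction, the authors' values, detection on all arrays or array weights. KLK2, called lower, was among those added at 24 hours. In the main fit 1.26% of all genes were called higher and 0.744% lower at 12 hours, and 9.65% and 6.42% at 24 hours. The shares of all genes in the other settings were not counted, so these counts do not set the members apart from other genes.

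Some small member changes turned sign. With ST045849, KRT8 at 12 hours was -0.10 with times read from the sets and FOLH1 at 24 hours was -0.11 with median scaling. With siOGT at 12 hours, array weights gave KLK2 0.00, TMPRSS2 -0.01 and FOLH1 -0.01, the set effects gave KRT8 -0.02, times read from the sets gave FOLH1 -0.02, and vehicle as the control gave KLK2 -0.50, TMPRSS2 -0.01, HOXB13 0.04 and KRT8 -0.04. With siOGT at 24 hours, median scaling gave KRT8 0.09 and KRT18 0.00, and vehicle as the control gave KLK2 -0.19 and KLK4 0.01.

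Leaving out 1 array gave 486 to 1052 genes and 2 to 4 members called with ST045849 at 12 hours, 1705 to 2414 genes and 3 to 4 members at 24 hours, 0 to 1 gene with siOGT at 12 hours and 2 to 30 at 24 hours. At 12 hours the count with ST045849 was lowest without ST045849 replicate 3 (486) and vehicle replicate 3 (498). The difference of effects called 0 to 1 members at 12 hours and 2 to 4 at 24 hours, and the shares of all genes in these refits were not counted. Member changes that turned sign ranged, with ST045849 at 12 hours, from -0.12 to 0.19 for KRT8. With siOGT at 12 hours they ranged from -0.17 to 0.12 for KLK2, -0.09 to 0.02 for KLK4, -0.03 to 0.19 for TMPRSS2, -0.04 to 0.14 for FOLH1 and -0.10 to 0.12 for KRT8. With siOGT at 24 hours they ranged from -0.09 to 0.25 for KLK2, -0.03 to 0.32 for KLK3, -0.06 to 0.21 for TMPRSS2, -0.02 to 0.27 for HOXB13 and -0.06 to 0.01 for KRT8.

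Same-numbered arrays correlated in their deviations from the group means at -0.07 to 0.089 for ST045849 and vehicle. For siOGT and scrambled siRNA the values were 0.051 to 0.274, all positive. The numbers were not taken to pair the samples, so any effect shared by same-numbered siRNA arrays stayed in the error of the main fit. With the replicate block 677 genes were higher and 637 lower with ST045849 at 12 hours, 1513 and 1189 at 24 hours, 0 and 1 with siOGT at 12 hours and 3 and 10 at 24 hours. Under the block the calls of the 9 genes in these 4 comparisons did not change, while the difference of effects at 12 hours called 2 members, KLK3 being added (adjusted p = 0.0233), and that at 24 hours called KLK2 (adjusted p = 0.0226). The share of all genes called for that difference under the block was not counted.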
